A study of Drosophila melanogaster with 9 samples.

Results

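In eye imaginal discs of Drosophila, 42 genes whose symbol is a CG number stood on the same side of control in rbf1 mutant discs and in discs overexpressing PSC. Of these, 12 were higher than control in both genotypes and 30 were lower. They were selected on their measured differences from control, out of 5208 CG-numbered genes among 11983 genes measured. A gene was kept if the mean log2 intensities of both altered groups differed from the control mean by at least 0.5 in the same direction, and if all 6 altered values lay on the same side of the 3 control values. CG3588, which also meets this rule, was left out of the set by definition. The rule used both comparisons with control, so the differences from control given below describe the members and are not tested.

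The RNA was taken from larval eye discs of the third instar and was hybridized to Affymetrix Drosophila Genome 2.0 arrays, 3 biological replicates in each of 3 groups. The first group, the rbf1 mutant, had the genotype rbf1120a Gal4, the PSC overexpression discs were labelled w1118 psc, and control discs were w1118 Gal4. Neither the Gal4 driver nor the transgene's promoter is named, Gal4 is not named for the PSC discs, and the labels do not say how many larvae were pooled. The question stated for the series is what the rbf1 mutation and PSC overexpression each do to expression relative to control discs. Both altered groups are set against the same 3 control arrays, so a gene at an unusual level in the control discs moves both differences together. An effect shared by both genotypes and a peculiarity of the control stock cannot be told apart here.

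A CG number is the identifier that the fly genome annotation gives to a predicted gene, and a gene keeps it as its name until it is named for a phenotype or a function. Rbf is the fly retinoblastoma protein, which holds E2F targets of the cell cycle in check, and PSC, the Posterior sex combs product, acts within the Polycomb group complex PRC1 to keep developmental genes silent. The eye disc is the larval epithelium from which the adult eye forms. Where the family of a member's product is stated below, it is background on its predicted protein and not a result of these arrays.

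The altered genes and the tissue were checked first. Psc was 2.67 higher on the log2 scale in PSC discs than in control (limma adjusted p = 3.12e-07), and Rbf was 0.37 lower in rbf1 mutant discs (limma adjusted p = 0.0479). Of 12 eye disc markers 11 were measured, at mean levels of 11.04 to 11.10 in rbf1, 11.11 to 11.20 in PSC and 11.11 to 11.22 in control arrays, and 0 met the member rule. The rbf1 means thus lay just below the control means without overlap. Only toy passed, as lower in rbf1 mutant discs (-0.24, limma adjusted p = 0.0134), and it stood at -0.21 in PSC discs. Control 3 stood apart from the rest. On that array 42 genes were at least 2 above all the other 8 arrays, against 2 genes on control 2, 1 on rbf1 3 and 0 on each of the remaining arrays. An example is CG6933, at 3.81 to 4.07 on the 6 altered arrays and 3.91, 3.95 and 12.31 on the control arrays. The mean of 6 salivary glue genes also varied within groups, over 6.40 to 11.75 in rbf1, 9.53 to 12.24 in PSC and 6.52 to 13.10 in control arrays.

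The 42 members made up 0.806% of CG-numbered genes, and 102 of all 11983 genes, or 0.851%, met the same rule. Among genes with other symbols 59 of 6774, or 0.871%, met it. The CG-numbered genes were therefore near the share found over all genes. By direction, 0.230% of CG-numbered genes were higher and 0.576% lower, against 0.340% and 0.531% of genes with other symbols and 0.300% and 0.551% of all genes. All 42 members are annotated as protein coding. Their median level over the 9 arrays was 6.36, against 5.87 for all CG-numbered genes and 8.15 for all genes, and 9 members lay above the median of all genes. Most members are thus dim on these arrays, where RMA compresses differences. In bulk discs, fewer cells of a type and less RNA per cell cannot be told apart.

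A limma fit over all genes, with a threshold of 0.05 on the adjusted p, called 10.2% of all genes between the rbf1 mutant and control (6.31% higher, 3.92% lower). It called 12 of the 12 higher members and 24 of the 30 lower members. Centring each array on its median gave 1012 higher and 309 lower genes, against 756 and 470 as deposited. For PSC overexpression against control it called 3.80% of all genes (1.42% higher, 2.38% lower), with 11 of the 12 higher members and 21 of the 30 lower members. The rule used these contrasts, so the counts say nothing further about the members.

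**Figure D1:**
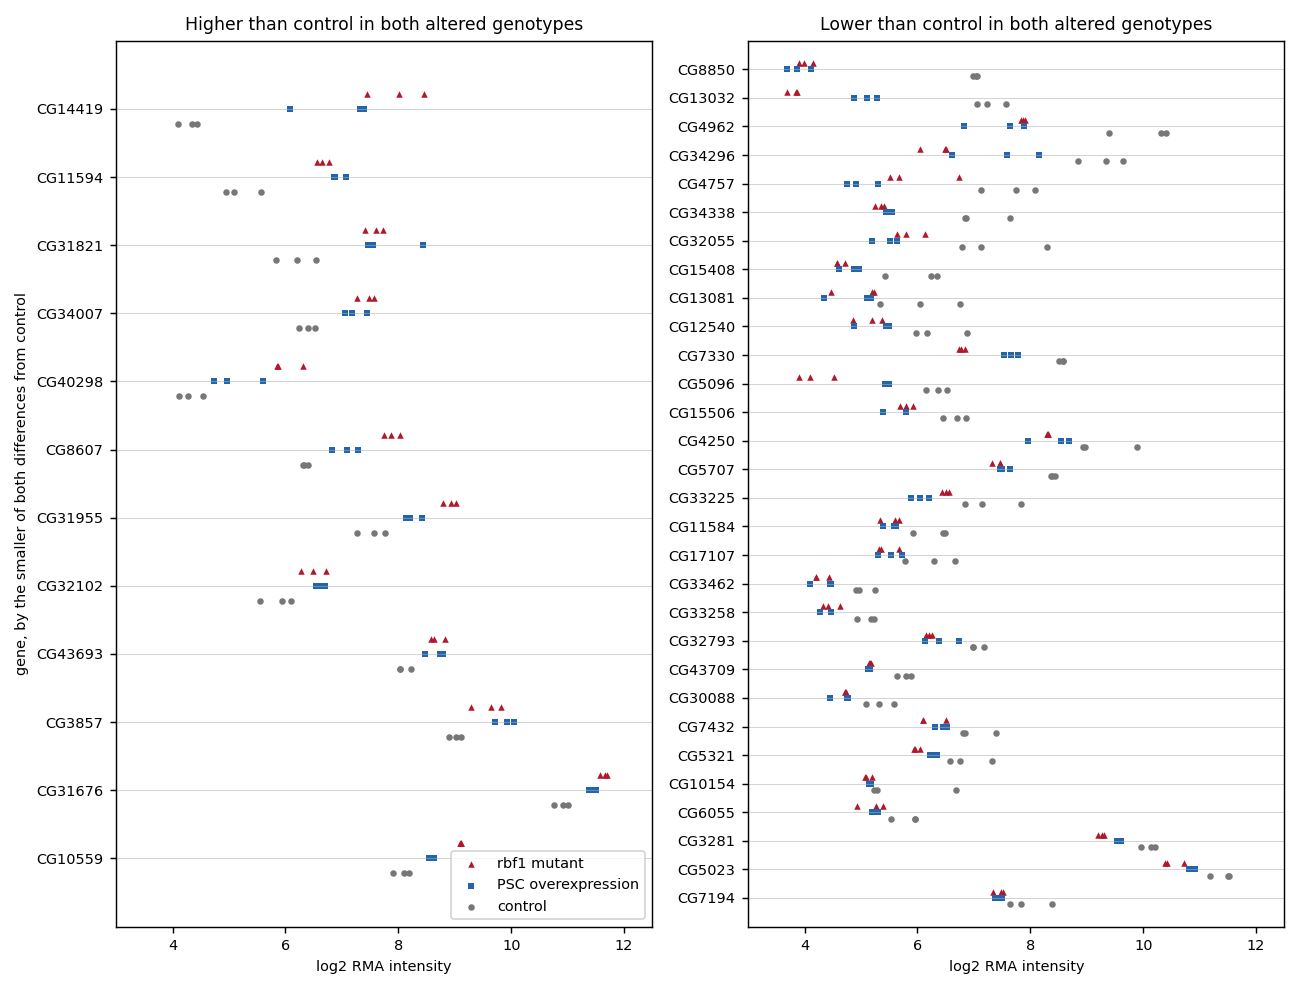
Log2 RMA intensity of each member (horizontal axis) on every array, with genes ordered from top to bottom by the smaller of both differences from control. Triangles are rbf1 mutant, squares PSC overexpression and circles control arrays (3 each); CG14419 and CG8850 have the widest gaps to control in their panels, 1.65 and 2.85.

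The 12 higher members exceeded control by 0.57 to 3.69 in rbf1 mutant discs (median 1.22) and by 0.52 to 2.64 in PSC discs (median 0.78), where the median over all genes was -0.0042 in rbf1 mutant and 0.0091 in PSC discs. Of these, 3 were at least 2-fold higher in both genotypes, namely CG14419, CG11594 and CG31821. CG14419 had 8.02, 7.44 and 8.46 in rbf1 mutant and 7.32, 7.39 and 6.08 in PSC arrays, against 4.43, 4.09 and 4.34 in control arrays. Its control values lie close to the most common low value of all genes, 4.15, and its lowest altered array, PSC 3, is still 1.65 above the highest control. The measured means differ by 12.9-fold from control in rbf1 mutant and 6.25-fold in PSC discs, figures set against a background level that have no exact meaning. The spread within the altered groups was wide (SD 0.51 in rbf1 mutant and 0.74 in PSC, n = 3 each).

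CG11594, whose product belongs to the FGGY family of carbohydrate kinases, had 6.66, 6.56 and 6.78 in rbf1 mutant and 6.87, 7.07 and 6.86 in PSC arrays, against 5.09, 5.57 and 4.94 in control. It was 2.75-fold over control in rbf1 mutant and 3.32-fold in PSC discs, and the PSC values all lay above the rbf1 values. CG31821, a predicted serine carboxypeptidase, had 7.61, 7.40 and 7.73 in rbf1 mutant and 7.55, 7.47 and 8.44 in PSC arrays, against 6.21, 5.83 and 6.55 in control. PSC 3 was the high array here, and without it the other PSC arrays fell among the rbf1 values.

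The remaining higher members were closer to control in at least 1 of the genotypes. CG40298 had 6.32, 5.87 and 5.85 in rbf1 mutant arrays and 4.96, 5.60 and 4.74 in PSC arrays, against 4.28, 4.54 and 4.12 in control arrays, so the PSC values lay only a little above a control level near the low end of the scale. CG8607 had 8.04, 7.87 and 7.75 in rbf1 mutant and 7.28, 7.09 and 6.82 in PSC arrays, against 6.40, 6.32 and 6.31 in control. CG31955 had 8.93, 9.02 and 8.80 in rbf1 mutant and 8.41, 8.21 and 8.14 in PSC arrays, against 7.76, 7.28 and 7.57 in control. All 3 genes form a staircase of groups, with control lowest, PSC between and rbf1 highest, and no overlap between neighbouring groups. The rule itself requires the gap to control, so only the order and separation of PSC and rbf1 could have come out otherwise. Such separation was found in 7 of the 12 higher members, in CG11594 with PSC farthest, against 30.5% of all genes.

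CG10559 belongs to the insect family of ecdysteroid kinase-like proteins. It had 9.11, 9.12 and 9.09 in rbf1 mutant and 8.59, 8.63 and 8.54 in PSC arrays, against 8.19, 8.10 and 7.90 in control, the same staircase with little spread. CG31676, a Ly6 family protein gene, was the brightest of the higher members, at 11.69, 11.66 and 11.58 in rbf1 mutant and 11.41, 11.38 and 11.50 in PSC arrays, against 10.92, 10.76 and 11.01 in control. The differences from control were 0.75 in rbf1 mutant and 0.53 in PSC discs. The SD of the arrays was 0.059 in rbf1, 0.060 in PSC and 0.13 in control.

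For CG34007 the differences from control were 1.05 in rbf1 mutant and 0.84 in PSC discs, for CG32102 0.64 in rbf1 mutant and 0.77 in PSC discs, and for CG43693 0.58 in rbf1 mutant and 0.57 in PSC discs. CG3857 stood at 0.57 in rbf1 mutant and 0.88 in PSC discs. In these 4 genes the rbf1 and PSC values overlapped. CG3857 has another probe set, at means of 8.45 ± 0.17 in rbf1 mutant and 8.26 ± 0.06 in PSC discs, against 7.57 ± 0.19 in control (SD, n = 3 each). That set, which the rule did not use, stood 0.88 above control in rbf1 mutant and 0.69 in PSC discs, the same direction as the brighter set. The sets disagreed on the genotype farther from control, PSC in the brighter set and rbf1 mutant in the other. With the mean of both sets rbf1 mutant minus PSC was -0.058, where the brighter set gave -0.31.

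Ring gland markers were compared beside the higher members. The ring gland, which lies by the brain and makes ecdysteroids, is marked by the synthesis genes dib, sad, nvd and spok, 4 measured of 5 written. Their mean level was 9.57 to 10.47 in rbf1 and 9.41 to 10.85 in PSC arrays, against 7.88 to 9.10 in control arrays, without overlap. By the member rule 3 of the 4 were higher in both genotypes, and by limma only dib passed against control (adjusted p = 0.0435 in rbf1 mutant and 0.0218 in PSC discs). The name phm for the fifth is shared by several genes in the RefSeq table and was not looked up in the list. The gene phtm, which carries that name and was picked out after its values were seen, met the rule as higher, 1.53 above control in rbf1 mutant and 1.66 in PSC discs. None of the 4 lay at the low end on any array, and their part in the level of the 12 higher members was not tested.

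The 30 lower members fell short of control by a median of -0.90 in rbf1 mutant and -0.86 in PSC discs, with ranges of -3.48 to -0.51 in rbf1 mutant and -3.13 to -0.51 in PSC discs. Of these, 10 were at least 2-fold lower in both genotypes. The widest gap belonged to CG8850, a gene of the SLC6 transporter family with the older name DmNAT4. It had 3.99, 3.90 and 4.14 in rbf1 mutant and 4.12, 3.69 and 3.87 in PSC arrays, against 7.05, 7.04 and 6.99 in control arrays. All 6 altered values lay at or below the most common low value of 4.15, so the estimates of 8.08-fold lower in rbf1 mutant and 8.77-fold lower in PSC discs are compressed, set from a background level. The control values agreed within 0.059.

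CG13032 had 3.87, 3.68 and 3.85 in rbf1 mutant and 5.28, 4.88 and 5.10 in PSC arrays, against 7.56, 7.23 and 7.05 in control. Here only the rbf1 mutant values lay below the low-end value, and the PSC values stood between. CG4962 had 7.91, 7.83 and 7.88 in rbf1 mutant and 7.64, 6.82 and 7.89 in PSC arrays, against 10.32, 9.39 and 10.39 in control, with replicate 2 the lowest in all 3 groups. It was 4.48-fold lower than control in rbf1 mutant and 6.01-fold lower in PSC discs, and remained well above the low end.

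For CG34296 the values were 6.48, 6.50 and 6.05 in rbf1 mutant and 8.14, 6.61 and 7.58 in PSC arrays, against 8.85, 9.64 and 9.33 in control. PSC 2 lay close to the rbf1 values while PSC 1 came within 0.70 of the lowest control. CG4757, a carboxylesterase family gene, had 5.52, 5.66 and 6.73 in rbf1 mutant and 5.30, 4.75 and 4.91 in PSC arrays, against 8.09, 7.12 and 7.74 in control. Array rbf1 3 was the high one among the altered arrays, and it lay 0.39 under the lowest control.

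CG34338 had 5.36, 5.40 and 5.25 in rbf1 mutant and 5.54, 5.45 and 5.47 in PSC arrays, against 6.85, 6.85 and 7.65 in control. Its other probe set read otherwise, at 4.56 ± 0.13 in rbf1 mutant and 4.61 ± 0.12 in PSC discs, against 4.52 ± 0.09 in control (SD, n = 3 each), differences of 0.044 in rbf1 mutant and 0.093 in PSC discs close to the low end. With the mean of both sets the differences from control were -0.87 in rbf1 mutant and -0.77 in PSC discs, where the brighter set gave -1.78 in rbf1 mutant and -1.63 in PSC discs. The remaining 40 members rest on a single probe set each.

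CG32055 stood at 6.13, 5.80 and 5.64 in rbf1 mutant and 5.52, 5.20 and 5.64 in PSC arrays, against 6.79, 7.12 and 8.29 in control. CG15408 had 4.57, 4.71 and 4.57 in rbf1 mutant and 4.60, 4.96 and 4.87 in PSC arrays, against 6.23, 6.35 and 5.42 in control. In both genes the control arrays disagreed with each other by more than the altered arrays did, with control 3 high for CG32055 and low for CG15408. CG13081 had 5.23, 4.47 and 5.19 in rbf1 mutant and 5.10, 4.34 and 5.18 in PSC arrays, against 6.05, 5.33 and 6.75 in control. Replicate 2 was the lowest in each group, and control 2 lay only 0.098 above the highest altered array. CG12540 differed from control by -1.20 in rbf1 mutant and -1.07 in PSC discs, with control values of 6.16, 6.88 and 5.97.

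CG7330 and CG5096 also formed staircases, as CG13032 did. CG7330 had 6.78, 6.74 and 6.84 in rbf1 mutant and 7.78, 7.54 and 7.66 in PSC arrays, against 8.58, 8.52 and 8.58 in control. CG5096 had 3.90, 4.53 and 4.10 in rbf1 mutant and 5.45, 5.42 and 5.50 in PSC arrays, against 6.15, 6.36 and 6.53 in control. In each, control was highest and rbf1 lowest, with the PSC arrays between and no overlap. Here too the gap to control is required by the rule. Separate rbf1 and PSC values were found in 12 of the 30 lower members, against 30.5% of all genes. In some of these, such as CG33225 and CG4757, the PSC arrays lay farthest from control.

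Serine protease genes appear among the lower members. RefSeq lists names of the form SP or SPH plus a number, used for fly serine proteases and their catalytically inactive homologues, for 4 of the 30 lower members (13.3%) and 0 of the 12 higher members, against 172 of 5208 CG-numbered genes (3.30%). The 4 were CG33225 (SPH236), CG33462 (SP240), CG30088 (SP219) and CG7432 (SP19). CG33462 and CG30088 also share the older names CG8215 and SP41 and lie near each other. CG33225 and CG30088 did not meet the rule without control 3. The family was picked out with the members known, and its share was not tested. CG33225 differed from control by -0.77 in rbf1 mutant and -1.23 in PSC discs, with 6.51, 6.55 and 6.44 in rbf1 mutant and 6.04, 5.89 and 6.21 in PSC arrays, against 7.14, 6.85 and 7.83 in control. CG33462 was dim throughout, at 4.21, 4.20 and 4.43 in rbf1 mutant and 4.44, 4.09 and 4.47 in PSC arrays, against 4.96, 4.92 and 5.25 in control. CG30088 stood at -0.61 in rbf1 mutant and -0.67 in PSC discs, and CG7432 at -0.77 in rbf1 mutant and -0.59 in PSC discs.

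The zinc finger gene CG3281 and the calponin family gene CG5023, which encodes a predicted actin-binding protein, were the brightest lower members. CG3281 had 9.31, 9.28 and 9.19 in rbf1 mutant and 9.61, 9.53 and 9.54 in PSC arrays, against 10.14, 9.96 and 10.21 in control. CG5023 had 10.38, 10.41 and 10.71 in rbf1 mutant and 10.91, 10.88 and 10.81 in PSC arrays, against 11.49, 11.51 and 11.18 in control. CG5321, listed with the name gamma-BBH for gamma-butyrobetaine hydroxylase of carnitine synthesis, differed from control by -0.91 in rbf1 mutant and -0.59 in PSC discs. CG5707 showed a tight pattern, at 7.41 ± 0.09 in rbf1 mutant and 7.53 ± 0.10 in PSC discs, against 8.40 ± 0.04 in control discs (SD, n = 3 each). CG43709 was as tight at a lower level, at 5.16 ± 0.02 in rbf1 mutant and 5.14 ± 0.02 in PSC discs, against 5.77 ± 0.12 in control.

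The last lower members, CG11584, CG17107, CG33258, CG32793, CG6055, CG4250, CG15506, CG10154 and CG7194, differed from control by -0.96 to -0.51 in rbf1 mutant and by -1.01 to -0.51 in PSC discs. At the edge of the rule, CG7194 (-0.51 in both genotypes) and CG10559 (1.05 in rbf1 mutant and 0.52 in PSC discs) were the members nearest inside the least difference of 0.5. CG8539, at -0.49 in rbf1 mutant and -1.07 in PSC discs, and CG11400, at -0.49 in rbf1 mutant and -0.53 in PSC discs, had all altered values below control and fell just outside. A further 71 CG-numbered genes differed from control by at least 0.5 in both genotypes and were left out because their values overlapped, 64 of them lower and 7 higher. In 28 of the 64, control 3 alone stood at least 2 above the other 8 arrays.

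**Figure D2:**
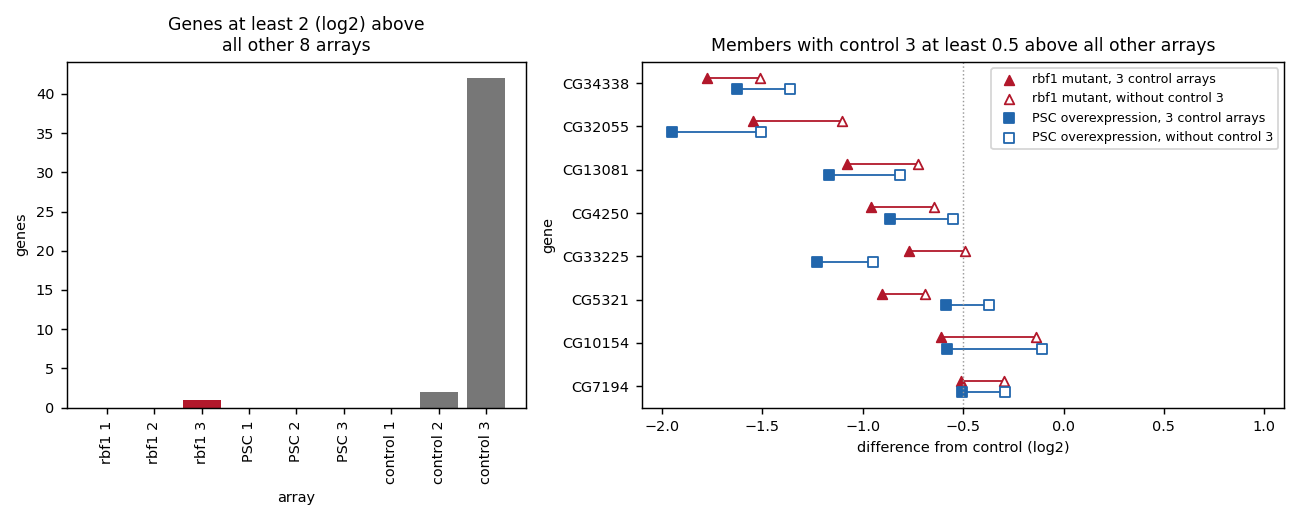
Left, number of genes on each array (horizontal axis) that lay at least 2 on the log2 scale above all other 8 arrays: 42 on control 3 and at most 2 on any other. Right, the 8 members whose control 3 value lay at least 0.5 above all other arrays, with the difference from control (log2) using all 3 control arrays (filled) and without control 3 (open); triangles are rbf1 mutant, squares PSC overexpression, and the dotted line marks -0.5.

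Control 3 weighed on the lower members in particular. For 8 of them, shown in the plot of differences with and without control 3, its value lay at least 0.5 above every other array. CG10154, which encodes a protein with chitin-binding domains of the peritrophin type, had 5.10, 5.20 and 5.08 in rbf1 mutant and 5.18, 5.14 and 5.13 in PSC arrays, against 5.29, 5.23 and 6.68 in control. Without control 3 its differences were -0.14 in rbf1 mutant and -0.11 in PSC discs. CG7194 came to -0.30 in rbf1 mutant and -0.29 in PSC discs without that array.

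Without control 3, 35 of the 42 members still met the rule, 11 higher and 24 lower. The other 7 were CG10154, CG7194, CG33225, CG5321, CG30088, CG3281 and CG10559. CG10559 stood 0.97 above control in rbf1 mutant and 0.44 in PSC discs without it, and CG3281 at -0.79 in rbf1 mutant and -0.49 in PSC discs. For CG33225 the values became -0.49 in rbf1 mutant and -0.95 in PSC discs, and for CG5321 -0.69 in rbf1 mutant and -0.37 in PSC discs. CG8850 hardly moved, at -3.03 in rbf1 mutant and -3.15 in PSC discs, nor did CG13032, at -3.60 in rbf1 mutant and -2.31 in PSC discs. Leaving out control 1 kept 40 members and leaving out control 2 kept 37. With only 2 control arrays more genes clear the requirement of no overlap, and 64 to 69 CG-numbered genes met the rule.

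Cuticle markers were compared beside the lower members. The mean of the 5 measured trachea, cuticle and epidermis genes, of 9 written, was 10.68 to 10.89 in rbf1 and 10.75 to 10.95 in PSC arrays, against 10.96 to 11.23 in control arrays. The groups did not overlap but nearly touched, 2 of the 5 passed as lower in rbf1 mutant and 0 in PSC discs by limma, and 0 met the member rule. In PSC discs kkv differed from control by 0.017 and knk by -0.060, and the highest control mean, on control 2, had Cpr65Au at 7.55 there and 5.25 to 6.26 on the 6 altered arrays. The fat body, haemocyte, midgut, muscle, glia, brain and testis means overlapped between control and at least 1 altered group, and 0 of their genes met the rule. Single genes of these lists passed in limma. Glial repo was higher by 0.52 in rbf1 mutant (limma adjusted p = 0.000274) and by 0.23 in PSC discs (limma adjusted p = 0.0327), and glial nrv2 was higher by 0.38 in rbf1 mutant. The haemocyte genes PPO1 (-1.25) and PPO2 (-1.10), Obp99b of the fat body list (-1.68) and Mst77F of the testis list (-0.25) were lower in rbf1 mutant, and topi of the testis list was higher (0.76). Of the 6 testis genes 5, Mst77F among them, lay at the low end of the scale on all arrays. The control values of topi, 4.17 to 4.27, lay there too. In PSC discs mira of the brain list was higher (0.70) and ase lower (-0.95). Of the midgut genes none passed, and Jon65Aiv stood at 9.53 on control 3. The part of any such tissue in the lower members was not tested.

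**Figure D3:**
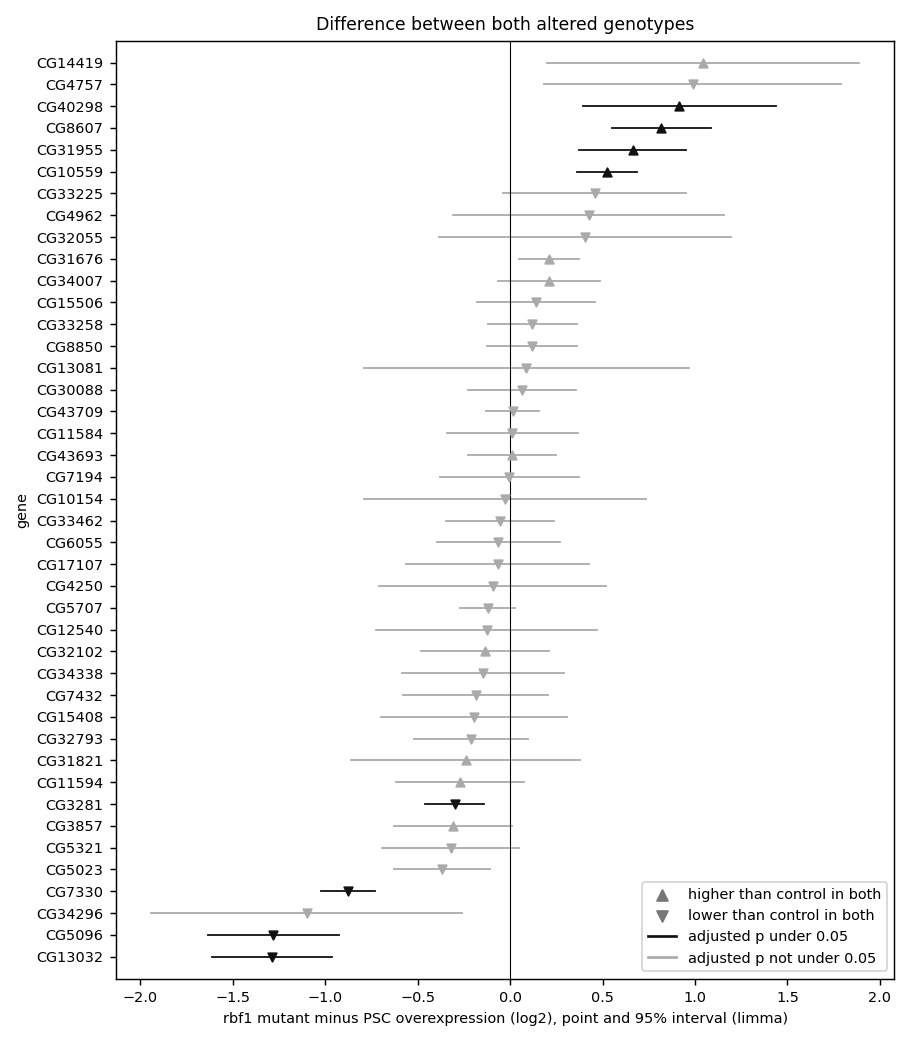
Difference between rbf1 mutant and PSC overexpression (log2, horizontal axis) for each of the 42 members, with its 95% interval from limma. Upward triangles are members higher than control, downward triangles members lower than control; the 8 drawn in black passed the 0.05 threshold and all lie on the side where the rbf1 mutant is farther from control.

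The size of the shift in both genotypes was compared directly. The rule fixes the side of control for both groups but not which lies farther out, so rbf1 mutant minus PSC overexpression was tested with limma over all 11983 genes. Of the 42 members, 8 (19.0%) passed an adjusted p of 0.05, where 10.6% of all genes passed. The 4 that were higher in the rbf1 mutant (6.91% of all genes) were all members raised above control, and the 4 that were lower (3.66% of all genes) were all members below control. In all 8, then, the rbf1 mutant was farther from control. Over all genes, too, more were called against control in rbf1 mutant (1226) than in PSC discs (455). Over the whole set, the rbf1 mutant mean was the farther one in 27 members and the PSC mean in 15. The rbf1 and PSC values did not overlap in 19 members (45.2%), against 30.5% of all genes. Members were chosen for shifts of at least 0.5, so the shares over all genes are not a like baseline. The median absolute difference between the altered groups was 0.21 in members and 0.091 over all genes.

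Among the higher members, CG10559 differed by 0.52 (SE 0.071, limma adjusted p = 0.00247) and CG8607 by 0.82 (SE 0.117, limma adjusted p = 0.00314). For CG31955 the difference was 0.66 (SE 0.127, limma adjusted p = 0.0120), a call lost without rbf1 2 (adjusted p = 0.0511). CG40298 stood 0.92 higher in the rbf1 mutant (SE 0.227, limma adjusted p = 0.0384). Its call was lost without rbf1 1 (adjusted p = 0.123), rbf1 2 (0.0775), rbf1 3 (0.0719), PSC 1 (0.123), PSC 3 (0.107) or control 1 (0.0624).

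Of the lower members, CG7330 differed by -0.88 (SE 0.064, limma adjusted p = 0.000109), with no overlap between both sets of arrays. CG13032 stood at -1.29 (SE 0.141, limma adjusted p = 0.000807) and CG5096 at -1.28 (SE 0.154, limma adjusted p = 0.00135). For both of these the rbf1 values sit at the low end of the scale, so the difference may be compressed. CG3281 differed by -0.30 (SE 0.070, limma adjusted p = 0.0294), and the call did not hold when rbf1 1, 2 or 3 or PSC 1, 2 or 3 was left out (adjusted p of 0.0577 to 0.104), while it held without control 1, 2 or 3.

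The other 34 members did not pass, which does not show that they shifted equally. In 14 of them the 95% interval of the difference lay within -0.5 to 0.5. The tightest was that of CG43709, from -0.13 to 0.16, followed by CG5707, from -0.27 to 0.027. CG8850 was bounded between -0.12 and 0.36, though both groups are at the low end. Other intervals were wide. CG14419 differed by 1.04 with an interval of 0.20 to 1.89 (limma adjusted p = 0.127), CG4757 by 0.99 with 0.18 to 1.79 (adjusted p = 0.128) and CG34296 by -1.10 with -1.94 to -0.26 (adjusted p = 0.107). Each of these 3 has 1 altered array far from its replicates, PSC 3, rbf1 3 and PSC 2. CG34296 passed without PSC 2, at -1.52 (adjusted p = 0.0157). CG33225 and CG5321 passed without control 3, as did CG5023, which also passed without rbf1 3. Unlike the 8 called with all arrays, CG33225 lay farther from control in PSC discs, with rbf1 mutant minus PSC at 0.46.

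**Figure D4:**
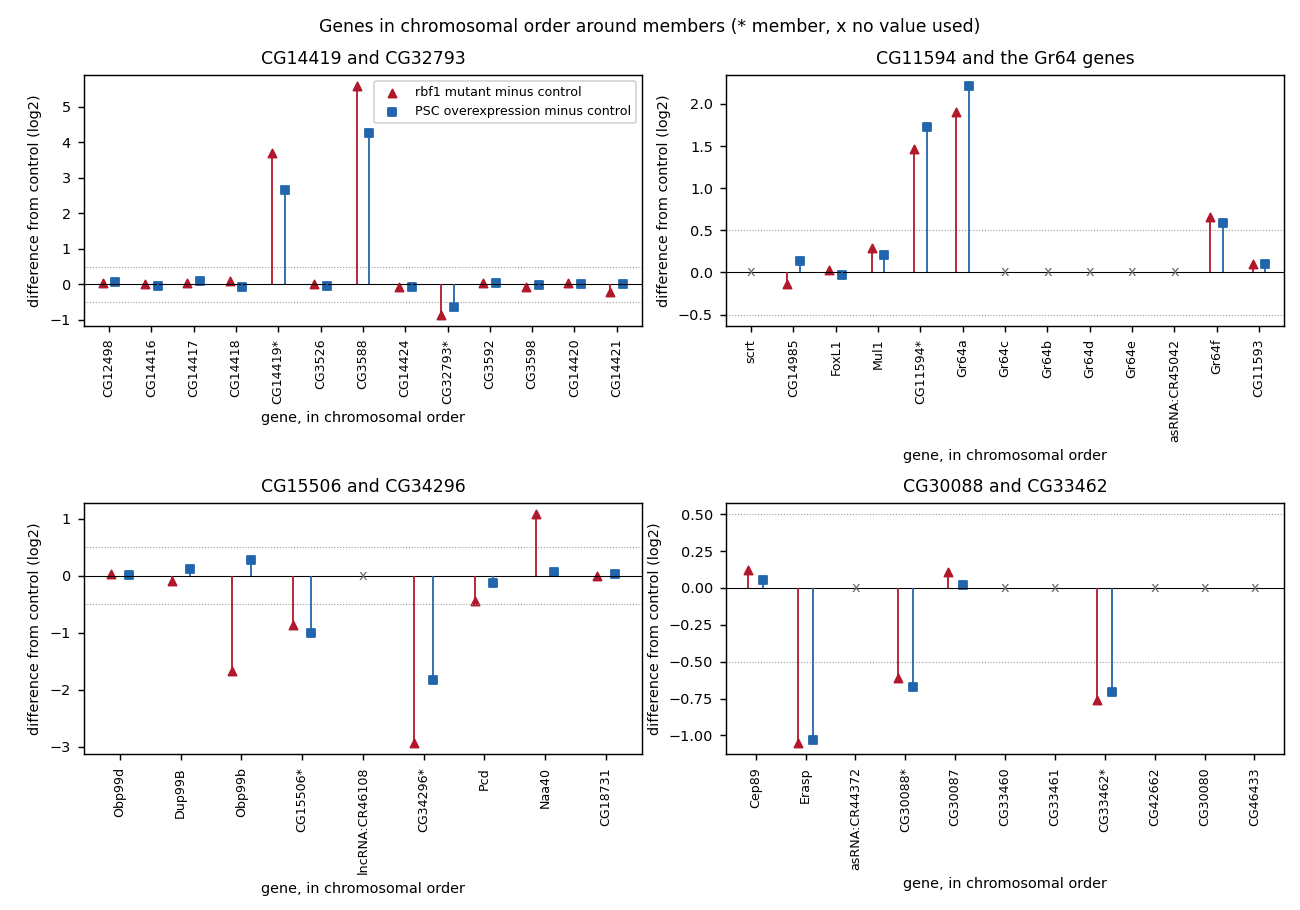
Difference from control (log2, vertical axis) of genes in chromosomal order around 4 groups of members, for rbf1 mutant (triangles) and PSC overexpression (squares); dotted lines mark 0.5 and -0.5, asterisks mark members and x marks genes with no value used. In the first panel CG14419 and CG3588 stand far above flat neighbours, and in the second CG11594 and Gr64a stand together.

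The position of members along the chromosomes was not used by the rule. In the gene order of the RefSeq table (Release 6 plus ISO1 MT), 13 of the 42 members (31.0%) lay within 10 genes of another gene that meets the rule, whatever its symbol, against 10.9% of 5094 other CG-numbered genes. For 10 of the 13 the nearest such gene had shifted in the same direction. Of all 102 genes that met the rule 66 were lower, so some agreement in direction comes with that split. The 13 are not separate cases. CG34296 and CG15506 are each other's nearest, as are CG12540 and CG5321. CG14419 and CG32793 both count through CG3588, and CG33462 counts through CG30088. Neither share was tested. In the plot of genes in chromosomal order, CG14419 is separated from CG3588 by 1 gene, CG3526, and CG3588 from the lower member CG32793 by CG14424. CG3588 was 5.59 above control in rbf1 mutant and 4.28 in PSC discs, CG14419 3.69 in rbf1 mutant and 2.64 in PSC discs. CG32793 stood at -0.85 in rbf1 mutant and -0.64 in PSC discs. CG3526 and CG14424 between them lay within 0.089 of control. The 4 genes measured before CG14419 and the 4 after CG32793 stayed within 0.23. CG3526, CG12498, CG14417 and CG3592 lay near the most common low value of 4.15, where a fall would hardly show.

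CG11594 lies directly beside Gr64a, the first gene of the cluster of sugar taste receptors. Gr64a had 6.29, 6.29 and 6.09 in rbf1 mutant and 6.68, 6.67 and 6.25 in PSC arrays, against 4.40, 4.11 and 4.46 in control. Both genes were a little higher in PSC than in rbf1 mutant discs, and Gr64f at the far end of the cluster was 0.65 above control in rbf1 mutant and 0.58 in PSC discs. On the other side Mul1 stood at 0.29 in rbf1 mutant and 0.20 in PSC discs. CG15506 and CG34296 are a pair of lower members with only a long noncoding RNA gene between them. CG15506 had 5.92, 5.79 and 5.68 in rbf1 mutant and 5.80, 5.39 and 5.79 in PSC arrays, against 6.85, 6.45 and 6.70 in control. Their measured neighbours did not follow in both genotypes, with Obp99b at -1.68 in rbf1 mutant and 0.27 in PSC discs and Pcd at -0.45 in rbf1 mutant and -0.12 in PSC discs.

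The protease genes CG30088 and CG33462 lie with 3 genes between them, and Erasp, with 1 antisense RNA gene between it and CG30088, stood at -1.05 in rbf1 mutant and -1.03 in PSC discs. CG30087, next to CG30088 on the other side, had 0.11 in rbf1 mutant and 0.022 in PSC discs. It read 3.55 to 3.94 on all arrays, below the most common low value of 4.15, where a fall would not show. CG31676 has 1 gene between it and Oseg5, which was lower in both genotypes (-1.05 in rbf1 mutant and -0.78 in PSC discs) while CG31676 was higher. CG5707 and Oseg2 are both lower, with 2 genes between. Tandem genes can be alike in sequence, and whether the probe sets of neighbours read each other's RNA was not tested.

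Genes with other symbols that met the same rule were 23 higher and 36 lower. The 5 with the largest smaller difference were the maltase gene Mal-A1 (-1.93 in rbf1 mutant and -2.15 in PSC discs), Gr64a (1.90 in rbf1 mutant and 2.21 in PSC discs), the ecdysteroid synthesis gene nvd (1.82 in rbf1 mutant and 1.85 in PSC discs), raskol (1.72 in rbf1 mutant and 1.85 in PSC discs) and obst-G, a chitin-binding protein gene (-1.74 in rbf1 mutant and -1.68 in PSC discs). The obst-G difference rests on control 3, with 3.60 to 3.76 in rbf1 and 3.60 to 3.79 in PSC arrays, against 3.89, 3.87 and 8.43 in control. Without control 3 it was -0.22 in rbf1 mutant and -0.16 in PSC discs. On this scale 5 members, CG8850, CG14419, CG13032, CG4962 and CG34296, had a smaller difference of 1.83 to 3.01.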

How the data were processed

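The authors deposited a log2 intensity for each probe set of each array, made with RMA per the submitters' processing notes. RMA corrects background, normalizes between arrays and summarises probes, and it compresses differences of dim genes. The RMA version was not stated. Array medians were 5.83 to 5.92, and no further scaling was applied. Of 18952 probe sets, the 13647 with 1 gene were used, and the brightest set over 9 arrays was kept per gene. Symbols came from RefSeq by gene identifier, matched for 11894 of 11983 genes. No sequences were used.

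limma 3.58.1 in R 4.3.3 fitted group means to all 9 arrays (6 residual degrees of freedom), with eBayes and Benjamini-Hochberg adjustment over all genes. Fits were tested on simulated data. The number of arrays limits the precision. Members, marker lists and tests were chosen with earlier results of these data known. Genes named in full were the first 12 in each direction by the smaller difference, those called between the altered groups, those at the edge of the rule, those with another probe set and those beside another member. Same-numbered replicates did not deviate together in all pairs (correlations of -0.44 to 0.59), so no block was used. Differently numbered arrays ranged from -0.62 (rbf1 1 with PSC 3) to 0.62 (rbf1 1 with PSC 2). Some deviations were thus shared across groups without following the replicate numbers. Alternatives were another choice of probe set, array scaling, least difference or filter, a covariate, and leaving out each array.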

Additional observations from a re-analysis of the deposited data

Results flagged for a closer look

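For 8 members the effects of both genotypes differed by the limma test of rbf1 mutant minus PSC overexpression. The differences were 0.92 for CG40298, 0.82 for CG8607, 0.66 for CG31955 and 0.52 for CG10559, all higher in the rbf1 mutant. They were -1.29 for CG13032, -1.28 for CG5096, -0.88 for CG7330 and -0.30 for CG3281, all lower in the rbf1 mutant. The calls of CG40298 and CG3281 were lost on leaving out any of several single arrays, and that of CG31955 without rbf1 2.

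Outside the gene table, 4720 probe sets have no gene in the annotation used, and 8 of these met the same rule as higher than control in both genotypes and 9 as lower. Of the 402 probe sets with several genes, 3 met it as higher and 4 as lower. Among probe sets without a gene, 1625009_at had the largest smaller difference, with 3.50, 3.18 and 3.58 in rbf1 mutant and 3.16, 3.11 and 3.33 in PSC arrays, against 5.31, 5.27 and 4.88 in control. The largest among those higher than control, 1623537_at, had 6.94, 7.55 and 7.49 in rbf1 mutant and 6.26, 6.03 and 6.90 in PSC arrays, against 5.40, 4.74 and 4.83 in control.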

How the results depend on the processing

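The number of genes meeting the rule followed its least difference. At 0.4 it was 73 (20 higher, 53 lower), at 0.75 it was 21 (5 and 16) and at 1 it was 13 (3 and 10), where 0.5 gave 42. Among genes above the median level 9 met it (5 and 4). After centring the arrays on their medians 41 met the rule (15 higher, 26 lower), with CG10154, CG17107, CG5023 and CG7194 lost. After quantile normalizing again 42 met it (15 and 27), with CG10154, CG17107 and CG7194 lost. With 1 array left out, 45 to 69 met it (69, 65 and 64 without control 1, 2 and 3), 12 to 18 higher and 33 to 51 lower. Members called between the altered groups were 5 to 11 with 1 array left out (5 without rbf1 2) and 3 of the 9 tested among genes above the median level, where fewer genes were tested. They were 8 with the replicate number as a block, and the same 8 passed; the block moved the calls over all genes to 1315. Over all genes, 843 to 1288 were called between the altered groups, 787 to 1199 in rbf1 mutant against control and 250 to 389 in PSC overexpression against control with 1 array left out, against 1266, 1226 and 455 with all arrays. The first was 843 without rbf1 2 and without PSC 1, the second 787 without rbf1 2, and the third 272 without PSC 1, 250 without PSC 2, 277 without control 1 and 289 without control 2. With the glue gene mean as a covariate CG40298 (adjusted p = 0.0926) and CG3281 (0.0553) no longer passed. With the altered arrays alone CG40298 did not pass (0.0666), but CG33225 and CG5321 did, and 9 members were called. Of these 2 gained genes, CG33225 was farther from control in PSC discs and CG5321 in the rbf1 mutant. The cause was not tested.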
